A study of Mus musculus with 2 samples.

Results

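Transcripts of 49 genes of the ADAMTS, ADAMTS-like (ADAMTSL), matrix metalloproteinase (MMP) and TIMP families were measured in cardiac neural crest cells from Adam19-/- and Adam19+/+ embryos of the mouse. The genes were taken by symbol alone, as every gene of the array named Adamts, Adamtsl, Mmp or Timp with a number and at most 1 letter after it, out of 19938 genes in all. They comprised 18 ADAMTS, 5 ADAMTSL, 22 MMP and 4 TIMP genes, and Adamts2 and Mmp15 were not analysed here. The Adam19-/- sample came from embryos of genotype Adam19-/-; Wnt1-Cre; R26tdTomato/+ and the Adam19+/+ sample from embryos of genotype Adam19+/+; Wnt1-Cre; R26tdTomato/+, both on a C57BL/6 background at stage E14.5. Both samples therefore carried the Cre driver, which is active in neural crest precursors, and 1 copy of the red reporter that Cre switches on. Hearts were digested with collagenase and the tdTomato-positive cells were sorted, so that the sample holds any heart cell with a history of Wnt1-Cre activity. RNA of each sample was hybridised to 1 Affymetrix Mouse Gene 1.0 ST array, and the sources used here do not give the number of pooled embryos. With 1 array per genotype (n = 1) there is no replicate and no test, and every difference below is the log2 signal of Adam19-/- minus that of Adam19+/+ on these arrays.

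ADAMTS proteases and MMPs are zinc-dependent enzymes that cut the extracellular matrix. ADAMTS enzymes are secreted and act mainly on large proteoglycans such as versican, on procollagens and on fibrillin microfibrils, whereas ADAMTSL proteins share their accessory domains but have no protease domain. MMPs cut collagens, gelatin and many other matrix proteins, and the membrane-type MMPs do so at the cell surface. TIMPs are secreted inhibitors that block MMPs and, in the case of Timp3, several ADAM and ADAMTS enzymes as well. In the embryonic heart the removal of versican-rich matrix by these proteases belongs to the remodelling of the cushions into valves and of the outflow tract.

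A value is the log2 signal of 1 transcript cluster, the set of probes that stands for a gene, and the brightest cluster was used where a gene had several. Signals of different clusters depend on their probes and are not compared as amounts of RNA. The median signal of all genes, 8.01, served as an expression floor, and a gene was counted as above it when at least 1 array was, which 10122 genes were. The floor marks a middle level and is not a limit of detection. Of the 49 genes, 30 lay above it, namely 16 ADAMTS, 3 ADAMTSL, 7 MMP and all 4 TIMP genes, and 19 lay under it, 15 of them MMPs. Mmp28, also called epilysin, sat at the floor, at 8.0 in Adam19-/- cells against 8.01 in Adam19+/+ cells. The nearest gene above it was Adamts14, at 8.06 in Adam19-/- cells against 8.26 in Adam19+/+ cells. The nearest below were Mmp24, at 7.63 in Adam19-/- cells against 7.33 in Adam19+/+ cells, and Adamtsl2, at 7.61 in Adam19-/- cells against 7.43 in Adam19+/+ cells. The plot of signal by gene shows both arrays for every gene.

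**Figure D1:**
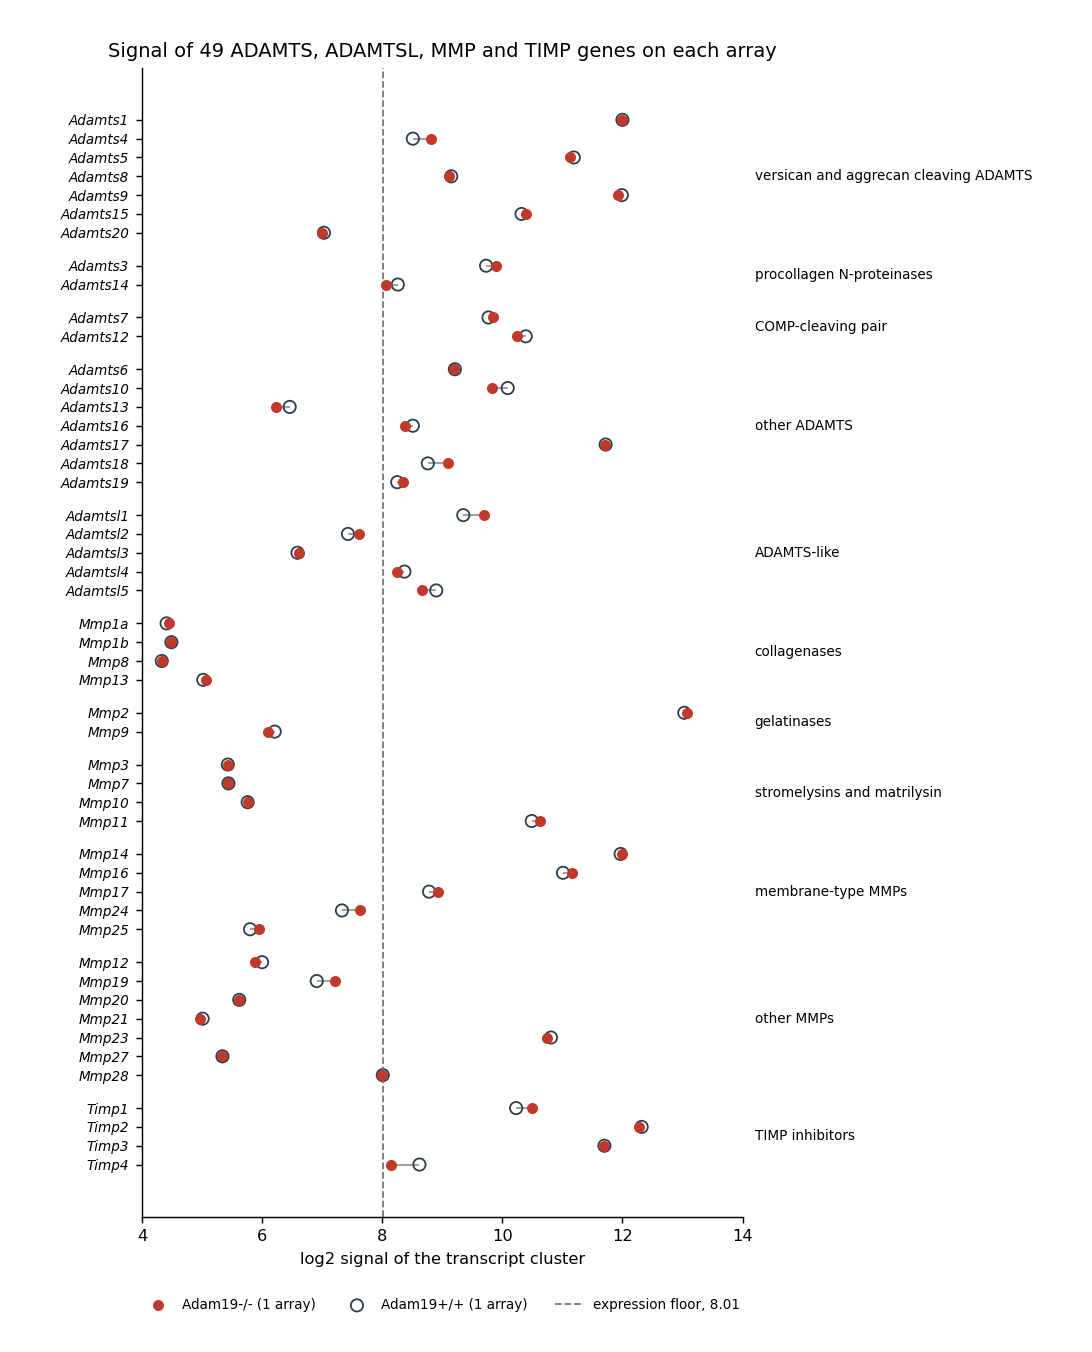
Log2 signal (x axis) of each of the 49 genes (rows, grouped by role) on the Adam19-/- array (filled points) and the Adam19+/+ array (open circles); the dashed line is the expression floor of 8.01 and grey bars join the arrays. Most pairs overlap, the widest gap is that of Timp4 (8.14 in Adam19-/- cells against 8.62 in Adam19+/+ cells), and most MMPs lie left of the floor.

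The arrays also differed in transcripts outside the set. Adam19 itself, which encodes a membrane-anchored ADAM protease and is no member of the set, was at 9.77 in Adam19-/- cells against 11.62 in Adam19+/+ cells, in the direction of the labels. No gene of the set lies within 20 Mb of Adam19. In Adam19-/- cells 3 Y-linked genes were lower, with differences of -1.62 to -1.17, and Xist was at 11.14 in Adam19-/- cells against 11.25 in Adam19+/+ cells. Of 16 macrophage and leukocyte markers 15 were higher in Adam19-/- cells and 1 was equal, with a summed signal of 11.69 in Adam19-/- cells against 11.30 in Adam19+/+ cells on the log2 scale. Cardiomyocyte markers were higher in 9 of 12 (median 0.19), endothelial ones in 7 of 10 (median 0.22), erythroid ones in 4 of 5 (median 0.29), cartilage ones in 5 of 8 (median 0.35) and autonomic neuron ones in 4 of 7 (median 0.18). All 9 smooth muscle markers (median -0.13) and 4 of 5 Schwann and glial markers (median -0.14) were lower. Epicardial markers were higher in 3 and lower in 3 of 8, melanocyte markers in 3 and 3 of 6, and of Wnt1, Sox10 and Twist1, genes of the reporter lineage, 2 were higher and Wnt1 was equal. For scale, 65.2% of all genes above the floor were higher in Adam19-/- cells, against 37.7% of all genes under it. Above the floor were all 9 smooth muscle, all 5 glial and all 7 autonomic neuron markers, 10 of 12 cardiomyocyte, 8 of 10 endothelial, 7 of 8 cartilage, 5 of 6 melanocyte, 4 of 8 epicardial, 2 of 5 erythroid and 4 of 16 leukocyte markers. In such mixed samples fewer cells of a type and less RNA per cell cannot be told apart, and the part of these shifts in the differences below was not tested.

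The median difference of the set lay near 0. Of the 30 genes above the floor, 13 were higher in Adam19-/- cells and 17 were lower, and their median difference was -0.01. Of all 10122 genes above it 65.2% were higher and 33.7% lower, and the median was 0.04. In 15 of the 30 genes the arrays differed by less than 0.1 in either direction. The share of all genes above the floor within 0.1 was not computed, so this count has no comparison. No member differed by 1.5-fold, a difference that 0.237% of all genes above the floor reached. At 1.2-fold, or 0.26 on the log2 scale, 4 of the 30 genes were higher, a share of 13.3% against 4.06% of all genes above the floor. These were Adamtsl1, Adamts18, Adamts4 and Timp1. At the same fold 2 of the 30 genes, Timp4 and Adamts10, were lower, a share of 6.67% against 1.13%. Counts this small have no error estimate with 1 array per genotype. Timp1 was under 1.2-fold after quantile normalisation and Adamts10 was with 32 added to the linear signal. Lowess centring, under which 2.58% of all genes above the floor were higher and 1.76% lower, left Adamtsl1 and Adamts18 as the higher members and added Adamtsl5 to the lower ones. The central 95% of all genes above the floor ran from -0.20 to 0.30, with 3 of the 30 genes above that range and 4 below it.

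**Figure D2:**
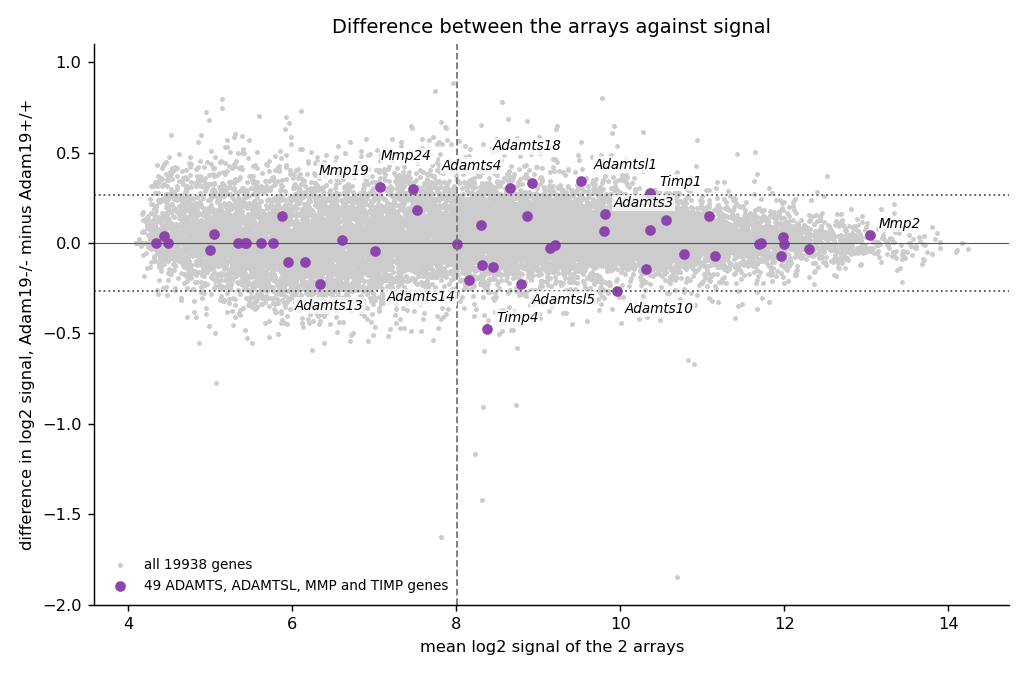
Difference in log2 signal, Adam19-/- minus Adam19+/+ (y axis), against the mean log2 signal of both arrays (x axis) for all 19938 genes (grey) and the 49 genes of the set (purple); dotted lines mark 1.2-fold and the dashed line the floor of 8.01. Timp4 at -0.48 is the member farthest from 0, and Mmp2, at the right, lies at 0.04.

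The inhibitors held the largest difference of the set, that of Timp4. Timp4, a TIMP abundant in the adult heart, had a signal of 8.14 in Adam19-/- cells against 8.62 in Adam19+/+ cells, which is 1.39-fold lower (difference -0.48). It was the 15th largest decrease among the 10122 genes above the floor. Timp1, a broadly inducible inhibitor whose gene is on the X chromosome, was at 10.50 in Adam19-/- cells against 10.23 in Adam19+/+ cells, 1.21-fold higher, and ranked 350th by increase. Timp2, which inhibits Mmp2 and also serves as its adaptor on Mmp14, was at 12.28 in Adam19-/- cells against 12.32 in Adam19+/+ cells. Timp3, which is bound to the matrix and inhibits ADAM and ADAMTS proteases as well as MMPs, was at 11.69 in Adam19-/- cells against 11.70 in Adam19+/+ cells. The 2 inhibitors past 1.2-fold thus differed in opposite directions, and the other 2 were nearly equal on both arrays.

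The proteases that cut versican and aggrecan were nearly level except for Adamts4. Adamts4, an aggrecanase, was at 8.81 in Adam19-/- cells against 8.51 in Adam19+/+ cells, 1.24-fold higher. Adamts1, a versican-cleaving protease, was at 11.99 in Adam19-/- cells against 12.00 in Adam19+/+ cells. Its signals were nearly equal. Adamts5, the other main aggrecanase, was at 11.12 in Adam19-/- cells against 11.19 in Adam19+/+ cells. Adamts9, a versican-cleaving protease needed in the mouse heart, was at 11.92 in Adam19-/- cells against 11.99 in Adam19+/+ cells. Both were slightly lower in Adam19-/- cells. Adamts15 was at 10.39 in Adam19-/- cells against 10.32 in Adam19+/+ cells, and Adamts8 at 9.12 in Adam19-/- cells against 9.15 in Adam19+/+ cells. Adamts20, known in the mouse for its role in melanoblasts, was under the floor at 6.99 in Adam19-/- cells against 7.03 in Adam19+/+ cells. Adamts1 and Adamts5 are neighbouring genes on chromosome 16 and Adamts15 and Adamts8 on chromosome 9, and neither pair held a gene past 1.2-fold.

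The enzymes that trim procollagens and the pair that cuts cartilage oligomeric matrix protein (COMP) differed in both directions. Adamts3, a procollagen N-proteinase that also takes part in VEGF-C processing, was at 9.89 in Adam19-/- cells against 9.73 in Adam19+/+ cells (difference 0.16). Adamts14, a procollagen N-proteinase too, was at 8.06 in Adam19-/- cells against 8.26 in Adam19+/+ cells (difference -0.20). Of the COMP-cleaving pair, Adamts7 was at 9.84 in Adam19-/- cells against 9.77 in Adam19+/+ cells, and Adamts12 at 10.24 in Adam19-/- cells against 10.39 in Adam19+/+ cells. None of these 4 genes passed 1.2-fold, against 4.06% higher and 1.13% lower among all genes above the floor.

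Among the other ADAMTS genes, Adamts18 was higher and Adamts10 lower. Adamts18, which has roles in eye and lung development of the mouse, was at 9.09 in Adam19-/- cells against 8.76 in Adam19+/+ cells, 1.26-fold higher and 183rd by increase. Adamts10, which acts on fibrillin microfibrils and is mutated in human Weill-Marchesani syndrome, was at 9.83 in Adam19-/- cells against 10.09 in Adam19+/+ cells, 1.2-fold lower and 111th by decrease. Adamts17, linked in humans to a related syndrome, was at 11.71 in Adam19-/- cells against 11.72 in Adam19+/+ cells. Its signals were nearly equal too. Adamts6, needed for heart development in the mouse, was at 9.20 in Adam19-/- cells against 9.21 in Adam19+/+ cells. Adamts19, linked to heart valve disease in humans, was at 8.35 in Adam19-/- cells against 8.25 in Adam19+/+ cells, and Adamts16 at 8.38 in Adam19-/- cells against 8.51 in Adam19+/+ cells. Adamts13, the liver-derived protease of von Willebrand factor, was under the floor at 6.23 in Adam19-/- cells against 6.46 in Adam19+/+ cells.

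The ADAMTSL genes held the largest increase of the set. Adamtsl1, which encodes the matrix protein punctin, was at 9.70 in Adam19-/- cells against 9.35 in Adam19+/+ cells, which is 1.27-fold higher (difference 0.34), and ranked 161st by increase. Adamtsl5, a microfibril-associated protein, was at 8.67 in Adam19-/- cells against 8.90 in Adam19+/+ cells (difference -0.23). Adamtsl4, which binds fibrillin and is linked to lens dislocation in humans, was at 8.25 in Adam19-/- cells against 8.37 in Adam19+/+ cells. Under the floor, Adamtsl2 differed by 0.18 and Adamtsl3 by 0.02. Adamtsl1 was thus the 1 ADAMTSL gene past 1.2-fold.

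For 4 genes the array carried several transcript clusters, which read different stretches of the same gene in the same RNA and are no replicates. All 16 clusters of Adamts3 were higher in Adam19-/- cells, by 0.09 to 0.40 with a median of 0.17, and 13 of them were above the floor. Of 60 genes above the floor with at least 5 clusters, 13.3% had every cluster higher and 25% every cluster lower, and of the 17 with at least 10 clusters Adamts3 was the 1 with every cluster higher. Both clusters of Adamtsl1 were higher, by 0.34 and 0.41. All 6 clusters of Adamts9 were lower, with differences of -0.09 to -0.02. The 5 clusters of Adamts17 ran from -0.09 to 0.16, with 4 of them lower. As a yardstick within the arrays, the differences of 439 genes with exactly 2 clusters above the floor lay a median of 0.06 apart, with a 95th percentile of 0.24. The gap says nothing of variation between embryos.

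**Figure D3:**
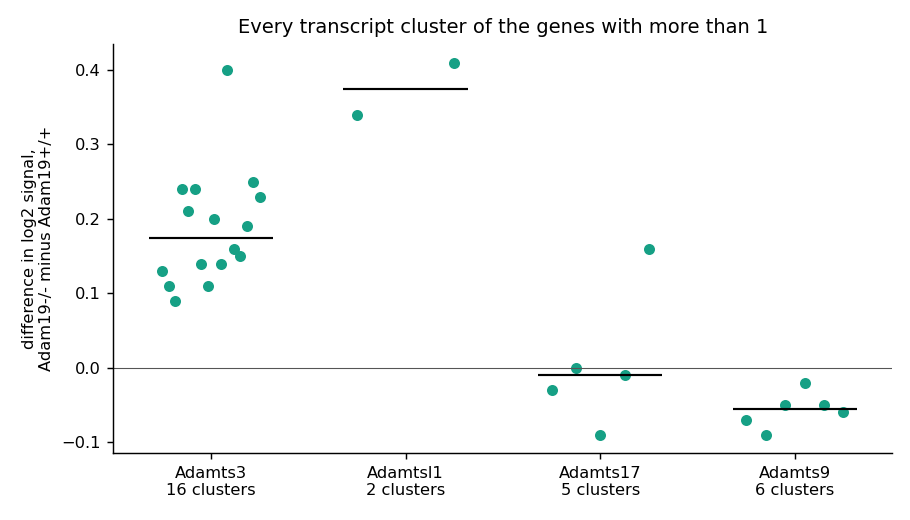
Difference in log2 signal, Adam19-/- minus Adam19+/+ (y axis), of each transcript cluster (points) of the 4 genes with more than 1 cluster, with the median as a black line. The 16 points of Adamts3 lie between 0.09 and 0.40 and the 6 of Adamts9 between -0.09 and -0.02.

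The MMPs above the floor differed little. Mmp2, the gelatinase of mesenchymal cells, was at 13.07 in Adam19-/- cells against 13.03 in Adam19+/+ cells. Mmp14, the membrane-type MMP that activates Mmp2, was at 12.00 in Adam19-/- cells against 11.97 in Adam19+/+ cells. With Timp2 above, the 3 components of this activation complex each differed by 0.04 or less. Mmp16 and Mmp17, membrane-type MMPs as well, were at 11.16 and 8.93 in Adam19-/- cells, against 11.01 and 8.78 in Adam19+/+ cells (difference 0.15 for each). Both were slightly higher in Adam19-/- cells. Mmp11, the furin-activated stromelysin of stromal cells, was at 10.62 in Adam19-/- cells against 10.49 in Adam19+/+ cells. Mmp23, an MMP with an atypical membrane anchor, was at 10.74 in Adam19-/- cells against 10.81 in Adam19+/+ cells. All 3 membrane-type MMPs above the floor were higher and none reached 1.2-fold, nor did any of the 7 MMPs. Of all genes above the floor 65.2% were higher, and only 4.06% were 1.2-fold higher and 1.13% 1.2-fold lower. Counts this small do not set the MMPs apart from them.

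Under the floor, 2 of the 19 genes were at least 1.2-fold higher and none was 1.2-fold lower, against 6.10% and 2.94% of the 9816 genes under it. These 2 were Mmp19, at 7.22 in Adam19-/- cells against 6.91 in Adam19+/+ cells, and Mmp24, a membrane-type MMP best known from neurons, at 7.63 in Adam19-/- cells against 7.33 in Adam19+/+ cells. The following 4 MMPs are known from leukocytes, a choice that need not be complete. Their signals lay far under the floor, and their relation to the leukocyte markers described above was not tested. Mmp12, the macrophage elastase, was at 5.89 in Adam19-/- cells against 6.00 in Adam19+/+ cells, and Mmp9, the gelatinase of myeloid and other cells, at 6.10 in Adam19-/- cells against 6.21 in Adam19+/+ cells. Mmp25, a leukocyte MMP, was at 5.95 in Adam19-/- cells against 5.80 in Adam19+/+ cells, and Mmp8, the neutrophil collagenase, at 4.33 on both arrays. Of these 4 genes, all under the floor, Mmp12 and Mmp9 were lower, Mmp25 was higher and Mmp8 was equal. Mmp13, the collagenase of hypertrophic cartilage, was at 5.07 in Adam19-/- cells against 5.02 in Adam19+/+ cells. Mmp21, which acts in left-right patterning, was at 4.97 in Adam19-/- cells against 5.01 in Adam19+/+ cells.

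The dim MMPs fell largely into 1 stretch of the genome. On chromosome 9, 10 MMP genes follow each other with no other protein-coding gene between them in the annotation, in the order Mmp13, Mmp12, Mmp1b, Mmp3, Mmp1a, Mmp10, Mmp8, Mmp27, Mmp20 and Mmp7. All 10 lay under the floor on both arrays, with values from 4.33 to 6.00. For 7 of them, Mmp1b, Mmp3, Mmp7, Mmp8, Mmp10, Mmp20 and Mmp27, the values of both arrays were exactly equal. Exact equality was found for 27.7% of all genes under the floor and for no other gene of the set, and the sources used here do not say which processing step gave rise to it. A value equal on both arrays gives no information on a difference. These are collagenases (Mmp1b, Mmp8), stromelysins (Mmp3, Mmp10), matrilysin (Mmp7), the tooth enamel protease Mmp20 and Mmp27. The remaining 3 differed by 0.05 (Mmp13), 0.04 (Mmp1a) and -0.10 (Mmp12).

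The starts of these genes share sequence features that the choice by symbol did not use. RefSeq promoter windows (GRCm38.p6) were at hand for 34 of the 49 genes, and the 250 bases before the annotated start were searched on both strands for the AP-1 motif TGANTCA, which reads the same on both strands, the TATA motif TATAAA and the GC box GGGCGG. The N of the AP-1 motif was allowed to be any base. For the 10 clustered MMP genes, 12 starts were annotated, and 8 of them, 1 each for 8 genes, held an AP-1 motif, 66.7% against 6.75% of all 32851 promoter windows of this length. A TATA motif was found in 7 of the 12 (58.3%, against 12.4% of all windows) and a GC box in 0 of the 12 (against 32.7%). Among the 25 windows of the other 24 genes, none held an AP-1 motif, 3 a TATA motif and 18 a GC box. The remaining genes of the set, Mmp2, Mmp9 and Adamts4 among them, had no window and were not searched. The median number of CpG dinucleotides per window was 1 in the cluster, 15 in the 25 windows of other members and 6 in all windows. A match is a run of letters and not a shown binding site, and genes of this MMP cluster arose by duplication, so their promoters are not independent.

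The last 110 bases before the start are shown for the 8 clustered genes with an AP-1 motif. In most of them a TATA motif follows the AP-1 motif. Capitals mark the motifs, and each line is read 5′ to 3′ on the strand of the gene.
Mmp10 (chr9:7502232-7502341, plus strand): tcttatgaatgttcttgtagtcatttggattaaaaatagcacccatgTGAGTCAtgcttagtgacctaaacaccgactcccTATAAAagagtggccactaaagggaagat
Mmp12 (chr9:7347264-7347373, plus strand): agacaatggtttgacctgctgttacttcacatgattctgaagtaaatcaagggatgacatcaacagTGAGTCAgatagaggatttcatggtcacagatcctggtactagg
Mmp13 (chr9:7272404-7272513, plus strand): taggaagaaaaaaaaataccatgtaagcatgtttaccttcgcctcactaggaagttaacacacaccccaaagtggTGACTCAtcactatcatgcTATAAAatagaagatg
Mmp1a (chr9:7464031-7464140, plus strand): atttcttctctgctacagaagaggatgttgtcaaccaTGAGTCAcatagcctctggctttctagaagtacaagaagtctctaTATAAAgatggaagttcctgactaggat
Mmp1b (chr9:7388027-7388136, minus strand): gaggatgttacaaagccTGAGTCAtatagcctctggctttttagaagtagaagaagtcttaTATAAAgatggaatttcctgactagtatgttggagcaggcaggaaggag
Mmp20 (chr9:7628121-7628230, plus strand): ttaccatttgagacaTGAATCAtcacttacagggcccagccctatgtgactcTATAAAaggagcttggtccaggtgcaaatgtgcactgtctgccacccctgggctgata
Mmp3 (chr9:7445712-7445821, plus strand): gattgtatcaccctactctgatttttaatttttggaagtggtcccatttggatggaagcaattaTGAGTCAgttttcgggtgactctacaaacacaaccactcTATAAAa
Mmp7 (chr9:7691980-7692089, plus strand): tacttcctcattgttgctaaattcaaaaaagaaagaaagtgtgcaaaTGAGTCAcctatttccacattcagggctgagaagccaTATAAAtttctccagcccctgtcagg

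In 7 of the 8 stretches shown a TATA motif follows the AP-1 motif, with 19 to 45 bases from the first base of one to the first base of the other. That TATA motif began at -58 (Mmp20) to -7 (Mmp3) bases from the annotated start. In Mmp7 a further TATA motif lies before the AP-1 motif, outside the stretch shown. Of all windows of 250 bases with an AP-1 motif, 18% also held a TATA motif, in either order. The spacing was 45 bases in Mmp1a and 44 in Mmp1b, which encode closely related collagenases. In the Mmp12 line no TATA motif of this spelling was present. The middle base of the AP-1 motif is A in the Mmp20 line and G or C in the other lines.

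**Figure D4:**
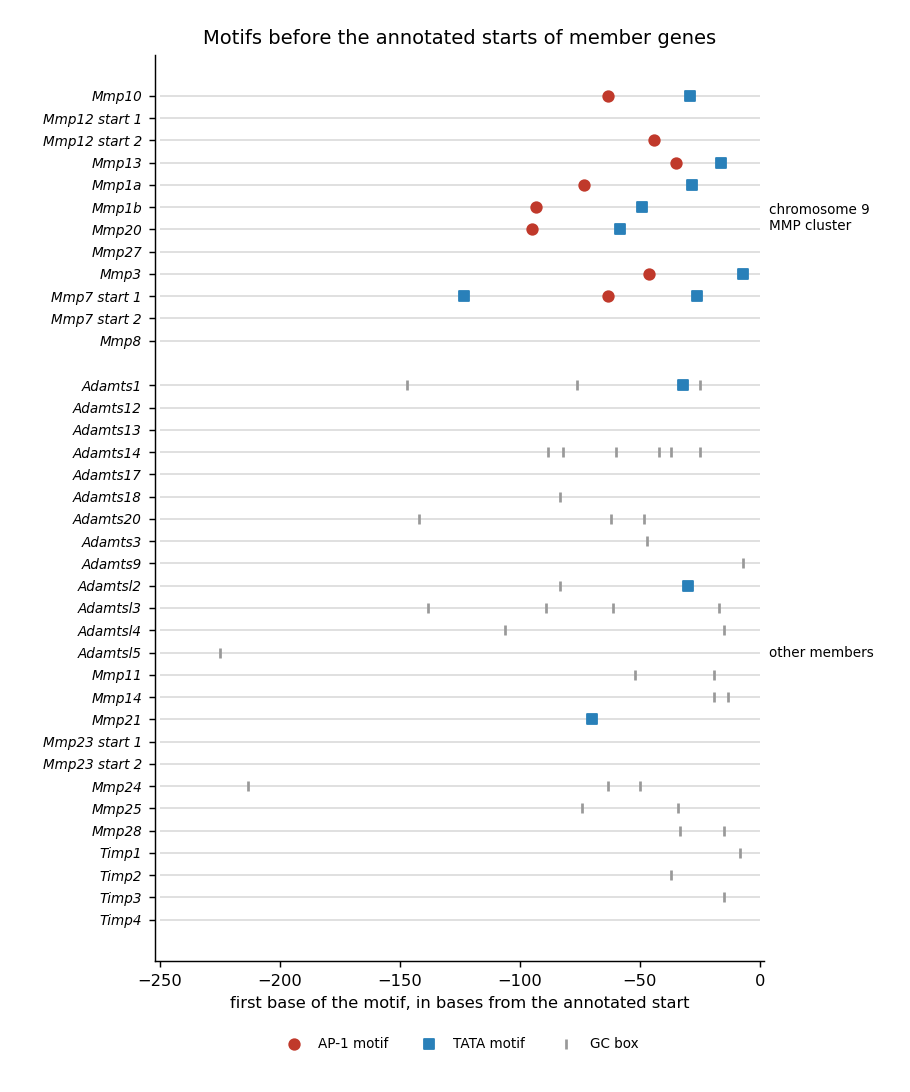
First base of each AP-1 motif (circles), TATA motif (squares) and GC box (ticks) in bases from the annotated start (x axis) for the 37 promoter windows of 34 genes (rows); genes with 2 starts have a row each. AP-1 motifs appear in 8 windows of the chromosome 9 MMP cluster and in none of the 25 windows of 24 other members. Members with no window are not shown.

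For contrast, the 250 bases before the start are shown for the inhibitors that differed and for Mmp14, which was above the floor and level between the arrays. None of them held an AP-1 or TATA motif of these spellings, and capitals mark GC boxes.
Timp1 (chrX:20869916-20870165, plus strand): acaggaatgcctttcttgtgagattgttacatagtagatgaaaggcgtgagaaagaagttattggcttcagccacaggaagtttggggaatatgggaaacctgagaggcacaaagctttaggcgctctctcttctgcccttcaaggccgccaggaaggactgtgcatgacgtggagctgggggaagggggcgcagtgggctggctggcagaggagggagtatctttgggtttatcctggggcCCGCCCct
Timp4 (chr6:115252206-115252455, minus strand): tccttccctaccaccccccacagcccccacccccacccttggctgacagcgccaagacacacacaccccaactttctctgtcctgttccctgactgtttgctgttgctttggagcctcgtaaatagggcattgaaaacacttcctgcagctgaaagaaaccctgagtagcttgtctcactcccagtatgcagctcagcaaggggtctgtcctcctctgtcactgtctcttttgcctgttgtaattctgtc
Mmp14 (chr14:54431348-54431597, plus strand): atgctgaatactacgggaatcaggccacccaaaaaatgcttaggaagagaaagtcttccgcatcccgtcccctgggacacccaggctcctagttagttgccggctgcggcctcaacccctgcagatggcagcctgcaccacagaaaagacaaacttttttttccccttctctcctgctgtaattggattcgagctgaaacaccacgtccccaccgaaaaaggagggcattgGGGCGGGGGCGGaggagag

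Mmp14 held 2 GC boxes and 10 CpG dinucleotides in this window and Timp1 held 1 and 6, whereas Timp4 held no GC box and 2 CpG dinucleotides. These counts describe the windows and say nothing of which factor acts there.

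Other genes of matrix proteolysis and its substrates differed by small amounts as well. Of 28 measured partners of the set, which included convertases, plasminogen activators, cathepsins and further inhibitors, 18 were above the floor. Of these 10 were higher and 8 lower, and their median difference was 0.01. At 1.2-fold none of the 18 was higher and 1 was lower, against 4.06% and 1.13% of all genes above the floor. The lower gene was Fap, the fibroblast surface protease, at 8.50 in Adam19-/- cells against 8.77 in Adam19+/+ cells. Pcsk6, a proprotein convertase, differed by -0.22, the secreted serine protease gene Htra3 by -0.19 and Thsd4, a relative of the ADAMTSL genes, by -0.18. Reck, a membrane-anchored MMP inhibitor, was at 11.53 in Adam19-/- cells against 11.46 in Adam19+/+ cells, and Furin, which activates ADAMTS proteases and membrane-type MMPs, at 10.45 in Adam19-/- cells against 10.46 in Adam19+/+ cells. Of 17 measured substrates 14 were above the floor. Of these 4 were higher and 10 lower, and their median difference was -0.04. Acan, the aggrecan core protein, was the 1 past 1.2-fold, at 9.63 in Adam19-/- cells against 9.93 in Adam19+/+ cells. Vcan, the versican core protein, was at 12.95 in Adam19-/- cells against 12.85 in Adam19+/+ cells. Thbs1 differed by 0.16, Eln by -0.14 and Col4a1 by -0.12. Acan is itself 1 of the 8 cartilage markers, of which 5 were higher. No list of fibroblast markers was examined, and the part of mixed cell types in the differences of Fap and Acan was not tested.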

How the data were processed

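The authors deposited 1 table of log2 signals per transcript cluster, 28853 clusters by 2 arrays. That the scale is log2 was inferred from the values. Background correction, normalisation and probe summary are not described in the sources used here, and the array is named in the series' design text. Clusters were named through the platform annotation, with symbols updated by Entrez identifier to a RefSeq table of GRCm38.p6. Of the clusters 21789 had 1 symbol (21698 matched the table), 1621 had several and 5443 had none in the annotation used here. Clusters with 1 symbol gave 19938 genes. The brightest cluster stood for a gene, and genes with an array above the median signal of 8.01 were kept.

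Members, lists and thresholds were chosen with earlier results of these data known. Every member was accounted for, and of each list of partners and substrates up to 4 genes above the floor with the largest absolute difference were named. Reck, Furin and Vcan were named in addition, after their values were seen, as was Wnt1. Some listed genes were not analysed here. With 1 array per genotype no p-value was computed, the number of arrays limits the precision, and folds of 1.2 and 1.5 served to count. The fold counts were tested on simulated differences of known size, planted well past 1.2-fold among others well under it. Differences close to 1.2-fold were not simulated. Quantile normalisation and lowess centring were tested only for the removal of a constant offset between the arrays. The other steps were not tested in this way. The alternatives were the floor, quantile normalisation, lowess centring (fraction 0.3), median centring, the mean over clusters and 32 added to the linear signal. The work used Python 3.11.15 with pandas 2.3.3, numpy 2.4.6, matplotlib 3.10.9 and statsmodels 0.14.6.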

Additional observations from a re-analysis of the deposited data

How the results depend on the processing

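The median difference of the set stayed between -0.02 and 0.00 under all 8 alternatives, and no member differed by 1.5-fold under any of them. Over all genes above the floor the median was 0.04 in the main setting, against -0.01 for the set. It was 0.01 after quantile normalisation and 0.01 after lowess centring, against -0.02 and -0.01 for the set. The distance of the set from all genes thus depended on the processing. The count of members 1.2-fold higher was 4 in the main setting, where 4.06% of all genes above the floor were. It was 2 after lowess centring (2.58% of all genes), 1 with a floor raised to the 75th percentile, which leaves 17 members (2.30%), and 6 with no floor (5.07%). The count of members 1.2-fold lower was 2 in the main setting (1.13% of all genes). It was 3 after lowess centring (1.76%), 1 with 32 added to the linear signal (0.968%) and 1 with the raised floor (0.896%). Quantile normalisation gave 3 members higher (2.68% of all genes) and 2 lower (1.58%). Timp4 (-0.52 to -0.44), Adamtsl1 (0.30 to 0.37) and Adamts18 (0.29 to 0.33) stayed past 1.2-fold under all 5 alternatives that change single values. Adamts4 (0.26 to 0.31) and Adamts10 (-0.31 to -0.26) did so under 4 and Timp1 (0.24 to 0.27) under 3. No member past 1.2-fold changed sign under these 5. The cause of the changed counts was not tested, except that the higher floor tests fewer genes. No paired analysis was possible because each genotype had 1 array, and for the same reason no replicate could be left out. No sample group was large enough to look for outlying arrays.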
